A study of Rattus norvegicus and Ovis aries with 113 samples.

Results

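The genes described here are 10 listed genes of the egg: Zp1, Zp2 and Zp3 of the egg coat, the growth factors Gdf9 and Bmp15, the transcription factors Figla and Nobox, and the maternal-effect or oocyte-secreted genes Oosp1, Nlrp5 and Ooep. They were taken by symbol, and 9 of them were among the 38675 genes of the rat count tables, while 8 were among the 31304 genes of the sheep count tables under upper-case symbols. Oosp1 in both species and ZP1 in sheep are not analysed here. The study sequenced messenger RNA from brain and reproductive samples of untreated animals of both species. The rat libraries came from Sprague Dawley rats, an outbred laboratory stock: ovaries (14 libraries) and whole brains (14 libraries) of the same 14 females, and sperm from seminal fluid (15 libraries) and whole brains (15 libraries) of the same 15 post-pubertal males. The sheep libraries came from 5 post-pubertal males, numbered 687, 688, 690, 694 and 699, each giving 1 sperm library and 1 library from each of 10 dissected brain regions. No sheep ovary library is analysed here, and neither the oestrous stage nor the age of the female rats is stated in the labels.

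An oocyte grows inside a follicle, surrounded by granulosa cells and, farther out, by theca cells. As it grows it secretes the zona pellucida, a glycoprotein coat built from the Zp proteins that sperm must bind and cross, and it stores RNA and proteins that carry the embryo through its first divisions. Gdf9 and Bmp15 are secreted ligands of the TGF-beta family by which the oocyte directs the surrounding granulosa cells. Figla, a basic helix-loop-helix factor, and Nobox, a homeobox factor, switch on oocyte genes, the Zp genes among the known targets of Figla. Nlrp5 and Ooep belong to the subcortical maternal complex, a protein assembly under the egg membrane that early cleavage needs.

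In the RefSeq annotation of the rat build GRCr8 all 9 measured genes are protein coding. Zp1 lies on chromosome 1 (216984343 to 216993882), as do Zp2 (183944840 to 183956619) and Nlrp5 (76811044 to 76872964). Figla (119989983 to 119994217) and Nobox (73128926 to 73134431) lie on chromosome 4, Zp3 on chromosome 12 (26327161 to 26334126), Gdf9 on chromosome 10 (38090021 to 38100801), Ooep on chromosome 8 (88103675 to 88104848) and Bmp15 on the X chromosome (18840943 to 18846006). The span of Gdf9 overlaps Uqcrq, a respiratory chain gene on the opposite strand, and the span of Zp2 overlaps Anks4b. Both kits mark the strand, but whether the counting used it is not given in the sources used here, so the origin of low counts of Gdf9 and Zp2 outside the ovary is uncertain.

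The 250 bases before the RefSeq start site were at hand for 8 of the 9 genes (GRCr8), and 3 of them are shown because Zp1 and Zp3 followed each other closely over the ovaries, while Bmp15 differed least between ovary and brain. Capitals mark every E-box, the motif CANNTG bound by basic helix-loop-helix proteins such as Figla. The start site used for Zp1 lies 1734 bases inside the annotated span of the gene. That of Gdf9, whose window is counted below but not shown, lies 6530 bases inside.
Zp1, chr1:216992149-216992398, minus strand: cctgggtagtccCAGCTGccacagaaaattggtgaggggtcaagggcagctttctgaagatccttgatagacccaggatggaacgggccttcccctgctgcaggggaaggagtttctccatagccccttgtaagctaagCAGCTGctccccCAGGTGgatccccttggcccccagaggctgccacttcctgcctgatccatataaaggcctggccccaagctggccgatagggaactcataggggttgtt
Zp3, chr12:26334127-26334376, minus strand: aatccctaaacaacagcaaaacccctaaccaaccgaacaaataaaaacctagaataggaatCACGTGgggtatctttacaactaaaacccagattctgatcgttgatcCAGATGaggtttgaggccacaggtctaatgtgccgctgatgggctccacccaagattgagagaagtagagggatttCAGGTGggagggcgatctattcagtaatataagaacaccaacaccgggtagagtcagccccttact
Bmp15, chrX:18840693-18840942, plus strand: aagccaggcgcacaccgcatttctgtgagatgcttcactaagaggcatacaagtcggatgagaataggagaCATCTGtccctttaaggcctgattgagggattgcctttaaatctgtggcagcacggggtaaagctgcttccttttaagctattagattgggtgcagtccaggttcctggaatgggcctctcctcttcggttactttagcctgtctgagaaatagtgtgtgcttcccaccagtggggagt
The Zp1 window held E-boxes starting 238, 111 and 99 bases before the start, the last of the form CAGGTG. The Zp3 window held them at 189, 142 and 66 bases, the last again CAGGTG, and the Bmp15 window held 1, CATCTG at 179 bases. At least 1 CANNTG stood in all 8 windows, against 65.2% of 27457 RefSeq rat promoter windows of the same length. CACCTG, a special case of CANNTG that reads CAGGTG on the other strand, stood in 4 of 8 (Zp1, Zp3, Figla and Nobox), against 15.6% of all windows. The homeobox motifs TAATTG and TAATTA were searched on both strands as well, and each stood in 0 of 8, against 7.38% and 4.94% of all windows. A match describes letters only, and its absence says nothing of binding.

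Total counts per library, in units of 1000000 (M), were 50.5 to 60.3 M in ovary, 38.2 to 119.2 M in rat brain, 13.7 to 65.1 M in rat sperm, 46.7 to 72.4 M in sheep brain and 13.7 to 65.1 M in sheep sperm. Rat ovary and female brain carried their markers: all 8 granulosa and all 8 theca and luteal genes were called higher in ovary than in female brain, and all 5 neuronal and 3 astrocyte genes lower. Of all 20801 genes tested there, 27.7% were called higher in ovary and 29.2% lower. Of 2 oviduct epithelium genes both were also called higher in ovary, at summed levels of 2.60 to 90.7 counts per 1000000 counts of the library total (CPM), and their part in any result was not tested. Brain library 1 (female) and brain library 4 (male) stood apart, with 29.92% and 28.42% of their counts on the rRNA entry Rn45s. Among the rat sperm libraries, 14, 7 and 3 held the most spermatid RNA, with summed levels of 8 spermatid genes of 21890, 20670 and 8086 CPM against 186.4 to 4506 in the other 12. All 15 also held epididymal RNA. Summed levels of 5 epididymis genes were 2882 to 33020 CPM (median 15850), against a median of 1637 CPM for the spermatid genes. The part of epididymal RNA in any result was not tested. Sheep sperm libraries were dominated by few entries, the highest taking 7.03% to 31.3% of the counts, and their scaling factors by the trimmed mean of M values (TMM) were 0.114 to 0.305 against 0.928 to 1.42 in sheep brain.

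In rat ovary all 9 genes had counts in all 14 libraries. Zp1, a zona protein that cross-links the filaments of the coat, ranged from 1.40 to 10.5 CPM with a median of 2.64 (mean 3.44 ± 2.33, SD, n = 14). Zp2, the zona protein cleaved after fertilisation, ranged from 10.5 to 51.2 CPM with a median of 18.6 (21.6 ± 10.8). Zp3, a further building block of the filaments, ranged from 4.94 to 31.6 CPM with a median of 10.0 (11.5 ± 6.68). For each of the 3, the highest level was in ovary 18, and the lowest was in ovary 21 for Zp1 and Zp3 and in ovary 25 for Zp2. Gdf9, needed for follicles to grow past the primary stage, ranged from 5.35 to 29.3 CPM with a median of 9.88 (11.4 ± 5.88). Bmp15, its X-linked partner, ranged from 0.966 to 4.05 CPM with a median of 1.62 (1.72 ± 0.825). Ovary 18 was again highest and ovary 21 lowest for both ligands.

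The transcription factor genes gave few counts. Figla, needed to form primordial follicles, ranged from 0.360 to 1.56 CPM with a median of 0.664 (0.803 ± 0.357, n = 14), from 20 to 81 counts per library. Nobox, needed for the early growth of follicles, ranged from 0.362 to 1.60 CPM with a median of 0.754 (0.768 ± 0.330), from 19 to 83 counts per library. Both were highest in ovary 18, and ovary 25 was lowest for Figla and ovary 24 for Nobox. Nlrp5, also called Mater, ranged from 4.50 to 18.7 CPM with a median of 6.19 (7.72 ± 4.02). Ooep, an RNA-binding-domain protein of the same complex, ranged from 2.38 to 14.4 CPM with a median of 5.23 (5.73 ± 3.17). Ovary 18 held the top value of these 2 as well, with ovary 24 lowest for Nlrp5 and ovary 23 for Ooep. The highest ovary exceeded the lowest by 4.15 times (Nlrp5) to 7.55 times (Zp1), and the coefficient of variation lay between 42.9% (Nobox) and 67.7% (Zp1). In whole ovaries, fewer or smaller oocytes and less RNA per oocyte cannot be told apart.

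**Figure D1:**
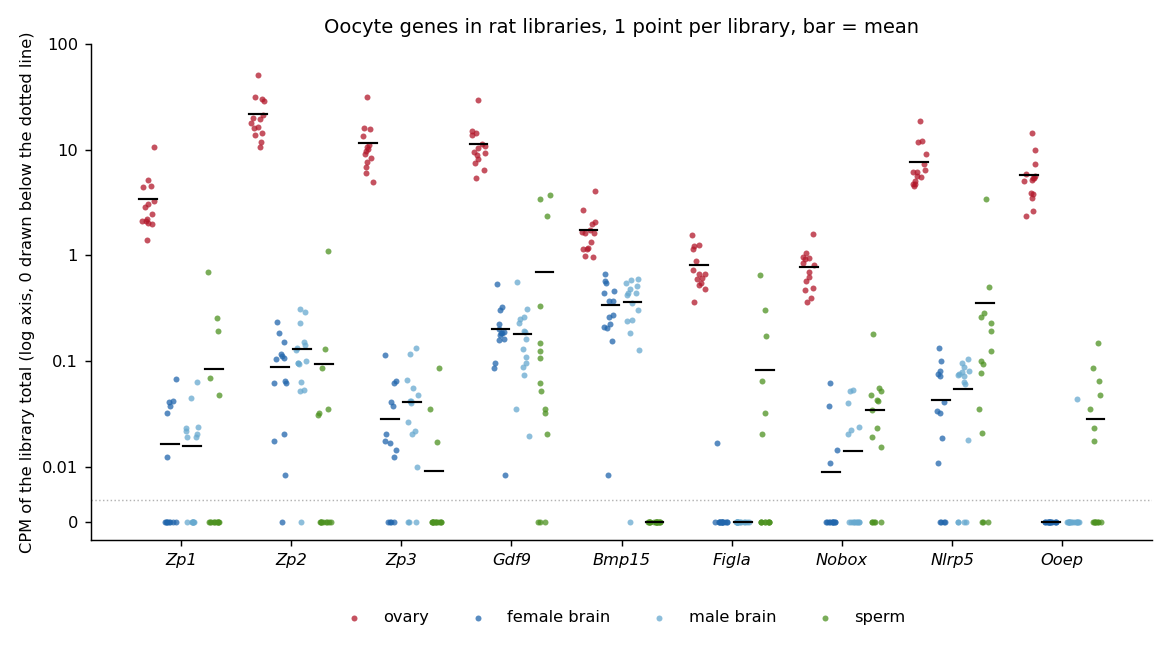
Level of each oocyte gene (CPM of the library total, log axis, libraries at 0 drawn under the dotted line) in 14 ovaries, 14 female brains, 15 male brains and 15 sperm libraries of the rat, with 1 point per library and the mean as a bar (mean bars between 0 and the dotted line are left out). The ovaries of every gene lie above all female brains, sperm libraries reach toward the ovaries for Gdf9, Figla and Nlrp5, and Bmp15 has brain means of 0.339 and 0.365 CPM with all sperm libraries at 0.

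The first comparison set ovary against the brains of the same females. In female brain Zp1 gave 13 counts over the 14 libraries (0 to 0.0670 CPM), Zp3 gave 22 (0 to 0.114 CPM) and Zp2 gave 74 (0 to 0.235 CPM), so that no brain reached the lowest ovary. Zp1 was 208.5-fold, Zp2 244-fold and Zp3 404.4-fold higher in ovary by mean CPM. In edgeR's quasi-likelihood test with Benjamini-Hochberg adjustment the log2 differences were 7.28 ± 0.43 for Zp1 (SE, adjusted p = 3.58e-16), 7.55 ± 0.33 for Zp2 (adjusted p = 1.36e-19) and 8.33 ± 0.37 for Zp3 (adjusted p = 2.33e-19). Figla gave 1 count in 14 female brains, Nobox 9, Nlrp5 35 and Ooep 0. Ooep was therefore at least 1697-fold higher in ovary, taking 3 counts over the brain libraries as the limit that a count of 0 allows. For Figla the ratio of 713 had a 95% counting interval of 127.9 to 28160, which covers counting error only. Nobox was 86.2-fold higher (5.59 ± 0.41 on the log2 scale, edgeR adjusted p = 9.02e-14) and Nlrp5 180.8-fold higher (7.12 ± 0.36, edgeR adjusted p = 9.21e-18). The female brains thus held these 4 genes at or near 0. The highest of the 4 was Nlrp5, at a mean of 0.0427 CPM, above Zp1 (0.0165 CPM) and Zp3 (0.0285 CPM).

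The 2 ligand genes were read in nearly every brain, as was Zp2, though at a lower mean (0.0886 CPM in female brain). Gdf9 ranged from 0.00839 to 0.540 CPM in female brain with a median of 0.184 (mean 0.202 ± 0.126, n = 14), and Bmp15 from 0.00839 to 0.665 CPM with a median of 0.320 (0.339 ± 0.182). For both, the lowest female value was in brain library 1, the library with 29.92% of its counts on Rn45s. That library also had only 8679 genes at 1 CPM or more, against 14177 to 16632 in the other female brains. The reason for its low values was not tested. Gdf9 was 56.4-fold higher in ovary (log2 5.54 ± 0.25, edgeR adjusted p = 5.47e-19), and Bmp15 was 5.08-fold higher (log2 2.04 ± 0.24, edgeR adjusted p = 3.80e-09). The lowest ovary, at 0.966 CPM of Bmp15, lay above the highest female brain, at 0.665 CPM. Uqcrq, which overlaps Gdf9, stood at 71.8 CPM in ovary and 76.7 CPM in female brain, and its part in the brain counts of Gdf9 was not tested.

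All 9 genes were called higher in ovary (adjusted p below 0.05 and a log2 difference of at least 1) with no overlap between the groups, where 27.7% of the 20801 genes tested were called higher and 27.7% were higher with no overlap. The median log2 difference of the 9 was 7.28, against 0.02 over all genes tested. Of the 9, only Bmp15 passed the low-count filter between the brains alone, so the other 8 entered the test through the ovary libraries and had to differ. The counts are therefore a description.

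With the low-count filter, whether brain counts followed sex could be tested for Bmp15 alone. It ranged from 0 to 0.595 CPM in male brain with a median of 0.419 (0.365 ± 0.178, n = 15), the value of 0 being in brain library 4. The female and male ranges overlapped, with a log2 difference (female minus male) of 0.17 ± 0.25 and an edgeR adjusted p of 0.865, where 0.0583% of 20570 genes were called in either direction. Without the low-count filter edgeR called 0 of the 9 genes between the sexes, where it called 0.0569% of 33372 genes in either direction. DESeq2 gave an adjusted p only for Zp2 (0.912), Gdf9 (0.697) and Bmp15 (0.882), and called none of them, where it called 0.102% of genes. The other members had no adjusted p from DESeq2 and could not be called by it. Of the 9, 0 had an unadjusted p under 0.05 with either tool. Gdf9 in male brain ranged from 0.0196 to 0.559 CPM with a mean of 0.180 ± 0.135. Over the 15 male brains Zp1 gave 11 counts, Zp2 96, Zp3 31, Nobox 10, Nlrp5 39, Ooep 2 and Figla 0.

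Rat sperm held few reads of the egg genes, and these were concentrated in a few libraries. Gdf9 stood at 3.70, 3.42 and 2.36 CPM in libraries 14, 7 and 3 and at 0 to 0.331 CPM in the other 12 (mean 0.693 ± 1.31, n = 15). Figla stood at 0.651, 0.303 and 0.173 CPM in libraries 14, 7 and 3, and 3 counts was the most in any other library. Zp1 gave 32, 15 and 10 of its 64 sperm counts in libraries 7, 14 and 3, and library 7 alone gave 51 of the 69 counts of Zp2. These are the 3 libraries with the most spermatid RNA, and the part of testicular germ cells in the counts was not tested. Nlrp5 followed another order, with 3.43 CPM from 47 counts in library 17, the shallowest sperm library at 13.7 M counts, and 0 to 0.497 CPM in the other 14. Library 16 gave no count of any of the 9 genes. Bmp15 had 0 counts in all 15 sperm libraries, Zp3 had 7, Ooep 23 and Nobox 27.

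**Figure D2:**
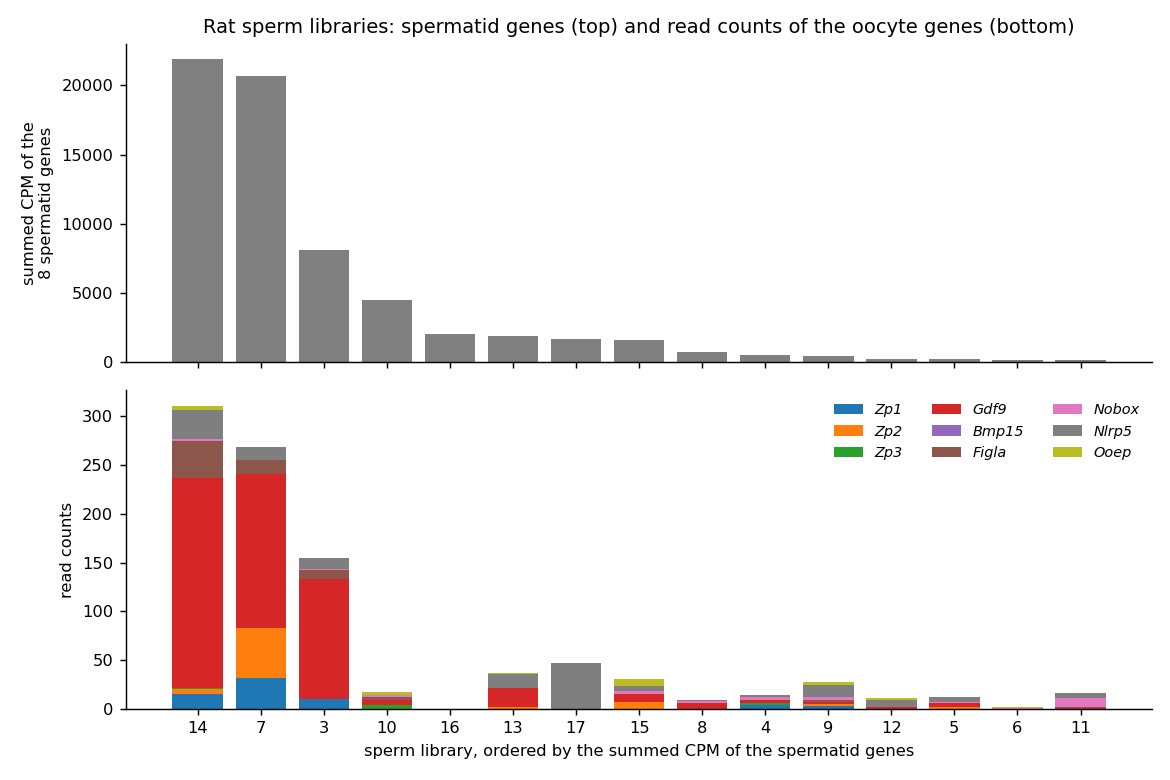
Rat sperm libraries ordered by the summed CPM of 8 spermatid genes (upper panel, linear axis), with the read counts of the 9 oocyte genes stacked below (lower panel). Libraries 14, 7 and 3 hold both the highest spermatid levels and the most oocyte gene counts, 311, 268 and 155, mostly Gdf9, while library 17 has 47 counts of Nlrp5 and library 16 has 0.

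Against sperm, all 9 genes were called higher in ovary, where 27.9% of 19611 genes were called higher, and 8 of them did not overlap, where 22.3% of genes were higher with no overlap. Figla was the exception, its highest sperm library (0.651 CPM) lying above the lowest ovaries. The edgeR log2 differences (ovary minus sperm) were 4.93 ± 0.79 for Zp1 (adjusted p = 2.34e-06), 7.41 ± 0.82 for Zp2 (adjusted p = 3.28e-09) and 9.59 ± 0.60 for Zp3 (adjusted p = 1.50e-14). For Gdf9 the edgeR difference was 3.66 ± 0.80 (adjusted p = 1.67e-04), a ratio of mean CPM of 16.5. Without sperm libraries 3, 7 and 14 the log2 difference of Gdf9 was 6.46, that of Figla 5.40 in place of 2.82, and that of Zp1 7.35. Bmp15 was at least 423.7-fold higher in ovary than in sperm by CPM. Nobox differed by 3.99 ± 0.46 (edgeR adjusted p = 7.01e-09), Nlrp5 by 4.38 ± 0.68 (edgeR adjusted p = 1.39e-06) and Ooep by 7.10 ± 0.61 (edgeR adjusted p = 1.41e-11). The median log2 difference of the 9 was 4.93, against 0.12 over all genes tested. Between sperm and male brain 0 of the 9 passed the low-count filter. All 9, Bmp15 included, thus entered the test against ovary through the ovary libraries and had to differ. These counts are a description as well.

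Between sperm and the brains of the same males 0 of the 9 genes passed the filter, where 27.7% of 20480 genes were called higher in sperm and 31.5% lower. Fitted without the filter, edgeR called Zp1, Gdf9, Figla, Nlrp5 and Ooep higher in sperm (5 of 9, where 36.6% of 35486 genes were called higher) and Bmp15 lower (1 of 9, where 25.6% were called lower). DESeq2 called Nlrp5 higher (1 of 9, background 24.3%) and Zp2, Zp3 and Bmp15 lower (3 of 9, background 27.6%). Both tools thus called Nlrp5 and Bmp15, and 1 tool each called the other 6. For Nlrp5 the log2 difference was 2.60 ± 0.75 with edgeR (adjusted p = 0.0028) and 2.79 ± 0.75 with DESeq2 (adjusted p = 3.65e-04), and library 17 carried much of it. Without that library the sperm mean fell from 0.356 to 0.136 CPM, the ratio to male brain from 6.61 to 2.54, and the log2 difference to 1.80 with edgeR (adjusted p = 0.016) and 1.68 with DESeq2 (adjusted p = 0.00911). Without libraries 3, 7 and 14 the sperm mean of Nlrp5 did not fall (0.361 CPM, ratio to male brain 6.7). Nlrp5 was then still called by edgeR (2.60, adjusted p = 0.00322) but not by DESeq2 (0.76, adjusted p = 0.249). In that smaller set the edgeR differences of Zp1 (-0.02, adjusted p = 0.988) and Gdf9 (-0.79, adjusted p = 0.161) changed sign and were not called, and DESeq2 called Gdf9 lower (-1.04, adjusted p = 0.0349). Bmp15, with 0 counts in sperm against 268 in male brain, was at least 89.7-fold lower in sperm by CPM (edgeR adjusted p = 1.40e-08).

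Among the 4 rat groups, mean CPM was highest in ovary for all 9 genes. Below ovary, the ranges of female brain, male brain and sperm overlapped for 8 genes, and no order is given for them. Calls between sperm and male brain made without the filter, despite that overlap, are given above. For Bmp15 the brain of either sex came next and sperm last, with male brain library 4 the only brain at 0.

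Over the 14 ovaries the 9 genes rose and fell together. Spearman's rho of log2(TMM-scaled CPM + 1) was positive for all 36 pairs, with a median of 0.75, and 32 pairs had an adjusted permutation p below 0.05 (100000 resamples, Benjamini-Hochberg over 36 pairs). The pairs most alike were both of zona genes: Zp2 with Zp3 had a rho of 0.95 (Pearson r 0.97) and Zp1 with Zp3 a rho of 0.94 (r 0.97), both with a permutation p of 1e-05, the smallest that the permutations can give, and an adjusted permutation p of 0.00018. The third zona pair, Zp1 with Zp2, had a rho of 0.87 (r 0.94, adjusted permutation p 0.00072), under the 0.88 of Nlrp5 with Zp2 and with Zp3. Without the 2 ovaries farthest from the median of the first gene the top pairs stood at 0.93 (r 0.94) and 0.90 (r 0.91). The 2 ligands had a rho of 0.87 (r 0.91, permutation p 0.00013, adjusted 0.00072), and 0.80 (r 0.79) without 2 ovaries. The 2 members of the subcortical complex, Nlrp5 and Ooep, had a rho of 0.82 (r 0.90, permutation p 0.00059, adjusted 0.002), and 0.72 (r 0.80) without 2 ovaries. All 3 of these within-role relations held in the smaller set. Pairs across roles ran from a rho of 0.31 (Figla with Bmp15) to 0.88 (Nlrp5 with Zp2 and with Zp3). Among them Ooep had 0.86 with Zp2 and 0.84 with Zp3, above its rho with Nlrp5. Whether genes of 1 role were more alike than genes of different roles was not tested.

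The pair of transcription factors was less alike. Figla with Nobox had a rho of 0.47 (r 0.58, permutation p 0.09, adjusted 0.095), and 0.53 (r 0.59) without 2 ovaries, which missed the threshold. Figla with Bmp15 had the lowest rho of all, 0.31 (r 0.52, adjusted permutation p 0.274), and 0.00 (r 0.15) without 2 ovaries. The median rho of a gene with the other 8 was 0.54 for Figla, 0.71 for Nobox and 0.73 to 0.85 for the other 7 genes. Figla and Nobox also had the fewest counts, with medians of 36.5 and 41.5 per ovary, and the part of counting error in their lower rho was not tested.

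**Figure D3:**
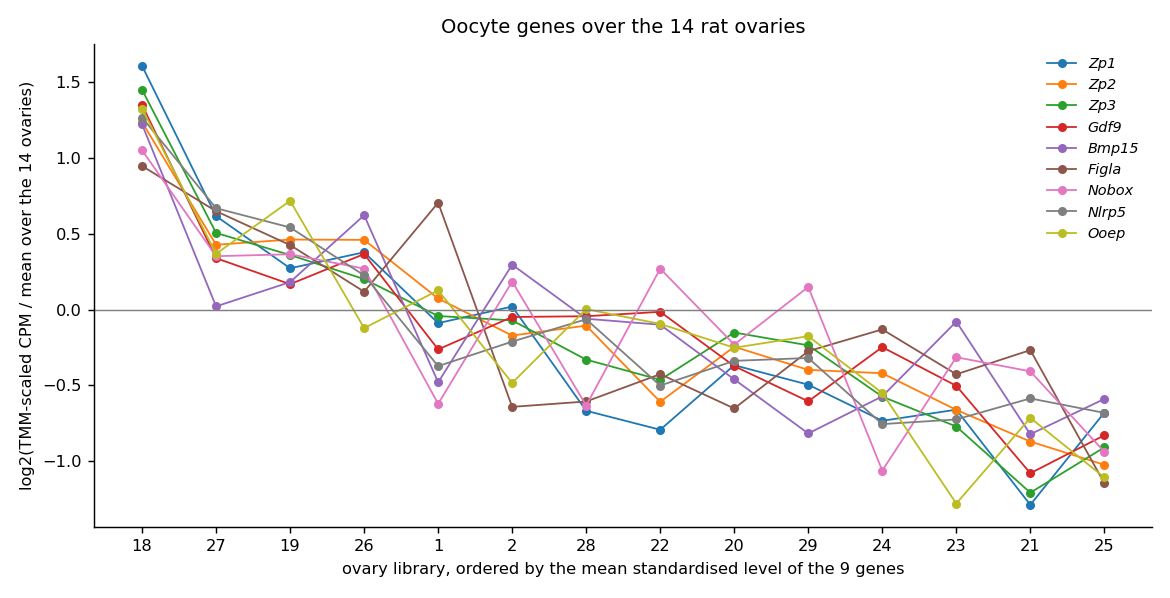
Level of each oocyte gene in each ovary relative to its mean over the 14 ovaries (log2 of TMM-scaled CPM), with ovaries ordered by the mean standardised level of the 9 genes, so that the downward order is set by the plot itself. Ovary 18 is highest for all 9 genes, and Figla departs most visibly from the others in ovary 1.

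Part of the relation rested on 1 ovary. Ovary 18 held the highest level of all 9 genes, with a summed level of 163 CPM against a range of 34.1 to 91.6 CPM in the other 13. Without it 25 of 36 pairs passed the threshold (median rho 0.69), and without the 2 farthest ovaries 20 did (median 0.66), and none was negative in either set.

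Markers of other ovarian cells and of germ cells were set beside the egg genes in the same way. Against 4 marker genes, 4 of 36 relations passed the threshold. Ddx4, a germ-cell RNA helicase, was positive with all 9 genes (median rho 0.63), and the adjusted permutation p was 0.004 for Nobox (rho 0.88, r 0.84), 0.02 for Nlrp5 (rho 0.77, r 0.86) and 0.02 for Ooep (rho 0.77, r 0.86). Star, which carries cholesterol into the mitochondria of theca and luteal cells, was negative with all 9 (median -0.55), and with Ooep the rho was -0.78 (r -0.59, adjusted permutation p 0.02). Star stood apart from most of its list: its rho with the mean standardised level of the 9 was -0.65 and that of Ptgfr -0.31, while the other 6 theca and luteal genes were positive, from 0.21 (Hsd3b1) to 0.71 (Lhcgr, the luteinising hormone receptor). Amh, made by granulosa cells of small growing follicles, had a median rho of 0.39, and Cyp19a1, the aromatase of large follicles, one of 0.03, with 0 of 18 relations past the threshold. Without ovary 18 only Nobox with Ddx4 passed, and without the 2 farthest ovaries Nobox with Ddx4 (rho 0.80, r 0.63) and Ooep with Star (rho -0.80, r -0.71) passed.

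**Figure D4:**
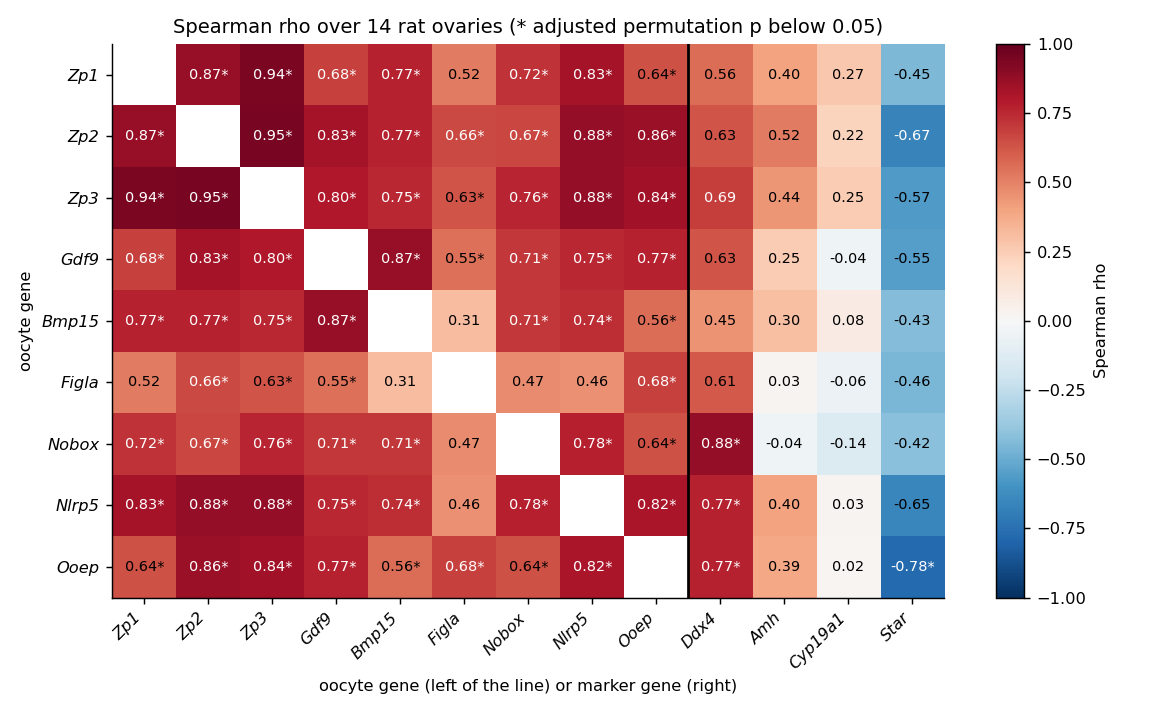
Spearman's rho over the 14 ovaries for each pair of oocyte genes (left of the line) and of each oocyte gene with Ddx4, Amh, Cyp19a1 and Star (right of the line), with colour from -1 to 1 and a star where the adjusted permutation p is below 0.05. Zp3 with Zp2 and with Zp1 hold the top values, 0.95 and 0.94, the Figla row is the palest, and the Star column is negative throughout.

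To find the genes that most resembled the 9, rho was taken between each gene averaging 1 CPM or more over the ovaries and the mean standardised level of the 9. The 10 most alike were Npm2 (0.952), Tuba3a and Umodl1 (both 0.947), Zar1 and Tle6 (both 0.934), Padi6 (0.925), Ryr1 (0.921) and Eif4e1b, Nlrp9 and Ftdc2 (all 0.912). This measure is over 14 ovaries and 14356 candidate genes and is given as a description, without a p. Npm2, a histone chaperone, and Zar1, an RNA-binding protein, are maternal-effect genes, and Padi6, a deiminase-family protein, and Tle6 belong to the egg cortex. Ryr1, the calcium channel of skeletal muscle, and Eif4e1b, an oocyte cap-binding protein, had higher means in female brain (17.1 and 4.09 CPM) than in ovary (10.0 and 3.39 CPM). The rest of the 10 had lower means in female brain. In rat sperm Tuba3a (78.15 against 2.325 CPM in ovary) and Eif4e1b (6.185 CPM) had higher means than in ovary, and the rest lower. Each gene's own rho with the mean of the other 8 ranked 1 for Zp3, 4 for Zp2, 34 for Nlrp5, 42 for Ooep, 54 for Zp1, 55 for Gdf9 and 235 for Bmp15 among 15743 genes. Figla (0.60) and Nobox (0.75) lay under 1 CPM and have no rank.

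Other genes of the same roles were compared by list. Over all 20801 genes tested, 27.7% were called higher in ovary than in female brain and 29.2% lower (median log2 difference 0.02). Of 11 other zona and cortex genes tested all 11 were called higher in ovary than in female brain, with a median log2 difference of 7.50, and 8 with at least 1 CPM had a median rho of 0.91 with the 9. Padi6 in this list was at 25.8 ± 12.7 CPM in ovary against 0.0105 CPM in female brain. Zbed3, a zinc finger protein of the complex, had the highest mean of the list, 47.2 ± 8.85 CPM, and Oosp2, an oocyte-secreted protein, the lowest, 0.614 ± 0.309 CPM. Of 15 other maternal-effect genes 12 were called higher and 1 lower (median 2.30), with means from 0.604 ± 0.335 CPM (Pabpn1l, a poly(A)-binding protein) to 78.0 ± 8.92 CPM (Cnot6l, a deadenylase) in ovary. The lower one was Uchl1, a deubiquitinase that is also a neuronal protein, at 33.2 ± 6.24 CPM in ovary and 588.7 ± 217.2 CPM in female brain. Among 9 oocyte and germ-cell regulators tested, 7 were called higher and 1 lower (median 2.47). The lower one was Kit, a receptor that oocytes share with other cells, which also had the highest ovary mean of the list, 25.9 ± 9.24 CPM, and Sohlh2, a basic helix-loop-helix factor, had the lowest, 0.143 ± 0.109 CPM. Between the brains alone, 2 genes of the first list, 7 of the second and 5 of the third passed the low-count filter. Genes that entered the test only through the ovary libraries had to differ, so these counts too are a description.

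The receptors and Smads that transmit Gdf9 and Bmp15 signals act in many tissues. Of 10 tested, with means from 24.7 CPM (Acvr1b) to 308.3 ± 59.3 CPM (Bmpr2, a type II receptor) in ovary, 3 were called higher in ovary than in female brain and 1 lower, where 27.7% of all genes tested were called higher and 29.2% lower, with a median log2 difference of 0.76 and a median rho over the ovaries of 0.17 with the 9. Bmpr1b, a type I receptor of Bmp15, was at 92.9 ± 28.5 CPM in ovary and 13.6 ± 5.58 CPM in female brain (log2 2.52 ± 0.14, edgeR adjusted p = 1.90e-16), with a rho of 0.73. Acvr1b, a further type I receptor, was lower in ovary, at 24.7 ± 3.57 CPM against 80.1 ± 30.0 CPM (log2 -1.96 ± 0.08, edgeR adjusted p = 2.21e-20). Of 5 genes that cumulus cells express in answer to the oocyte and the ovulatory surge, 3 were called higher, among them Ptx3 at 22.4 ± 10.0 against 0.518 CPM and Has2, a hyaluronan synthase, at 1.33 ± 0.751 against 0.420 CPM, and 1, Ptgs2, lower. The median rho of the 5 with the 9 was -0.44, with Ptx3 at 0.50 and the others from -0.59 to -0.25. For comparison, the median rho was 0.36 for 8 granulosa genes, 0.32 for 8 theca and luteal genes, -0.45 for the 2 oviduct epithelium genes (Foxj1 -0.48 and Pax8 -0.42) and -0.02 over 15749 genes.

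Against sperm, 8 of 11 other zona and cortex genes were called higher in ovary and 0 lower, and 11 of 15 maternal-effect genes higher and 1 lower, where 27.9% of all genes tested were called higher and 22.9% lower. The remark on the filter applies here as well. Nlrp14, a relative of Nlrp5, was not called, with 8.75 ± 4.50 CPM in ovary and 12.9 ± 26.1 CPM in sperm. Nlrp4 was not called either, with 0.717 ± 0.293 CPM in ovary and 0.531 ± 1.16 CPM in sperm. Ddx4, which is shared by male and female germ cells, was at 1.21 ± 0.589 CPM in ovary and 32.1 ± 64.1 CPM in sperm.

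In sheep, GDF9 was the egg gene with reads in every brain library. On CPM of the library total it ranged from 1.22 to 4.36 over the 50 libraries with a median of 2.26 (mean 2.30 ± 0.701). The 5 cerebellum libraries of sheep 687, 688, 690, 694 and 699 stood at 3.16, 4.36, 3.23, 3.68 and 3.87 CPM. The 5 basal ganglia libraries, in the same order, stood at 1.52, 1.46, 1.53, 1.49 and 1.36 CPM. All 5 cerebellum libraries lay above every library of the other regions except 1, the frontal cortex of sheep 687 at 3.68 CPM. Mean GDF9 fell in the order cerebellum (3.66 ± 0.494, SD, n = 5), frontal cortex (2.80 ± 0.499), motor cortex (2.52 ± 0.548), hippocampus (2.38 ± 0.423), entorhinal cortex (2.34 ± 0.407), prefrontal cortex (2.27 ± 0.273), visual cortex (2.09 ± 0.272), pons (1.84 ± 0.303), posterior parietal cortex (1.61 ± 0.410) and basal ganglia (1.48 ± 0.0679). Each region overlapped its neighbours in this order. After TMM scaling with factors from all 55 sheep libraries, sperm included, cerebellum (2.75 ± 0.335), frontal cortex (2.37 ± 0.446) and motor cortex (2.17 ± 0.392) stayed at the top. Basal ganglia (1.45 ± 0.0788) stayed at the bottom, but prefrontal cortex (2.02 ± 0.167) moved above hippocampus (1.86 ± 0.408) and entorhinal cortex (1.83 ± 0.305). On that scale the motor cortex of sheep 694 (2.55) also lay above the lowest cerebellum library (2.46). The test for any difference among the 10 regions took its TMM factors from the brain libraries alone. It called GDF9 (edgeR adjusted p = 9.82e-05), where 76.7% of 21147 genes were called. Summed neuronal markers were 4407 ± 160.9 CPM in cerebellum, 2171 ± 258.9 in basal ganglia and 1047 ± 575.1 in pons, and their part in the order was not tested.

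**Figure D5:**
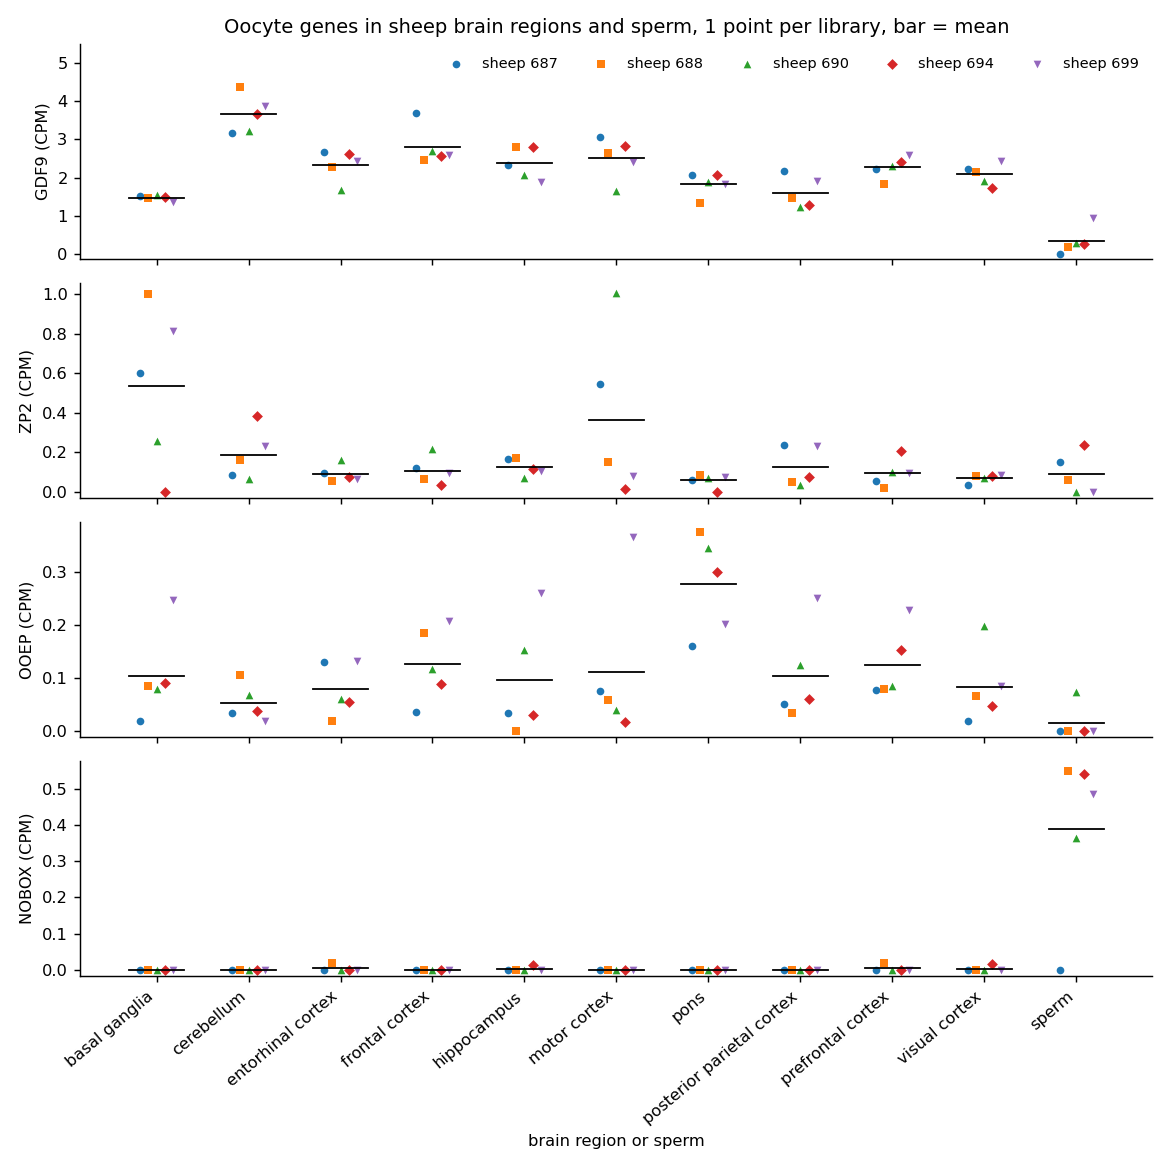
GDF9, ZP2, OOEP and NOBOX (CPM of the library total, linear axes that differ by panel) in 10 brain regions and sperm of 5 sheep, with 1 symbol per animal and the mean as a bar. GDF9 is highest in cerebellum (mean 3.66 CPM) and lowest in sperm (0.339 CPM) on this scale. After TMM scaling the sperm mean of 1.60 ± 1.99 lies above those of 3 regions, among them pons (1.54) and basal ganglia (1.45). That mean rests largely on sheep 699 at 5.06, and the sperm median is 0.888. OOEP is highest in pons (0.276 CPM), and NOBOX is at or near 0 in brain and read in 4 of 5 sperm libraries.

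ZP2 and OOEP were read at lower levels. ZP2 stood at 0.600, 1.00, 0.256, 0 and 0.814 CPM in basal ganglia and at 0.549, 0.153, 1.01, 0.0167 and 0.0813 CPM in motor cortex, with regional means of 0.0575 to 0.186 CPM elsewhere. Sheep 688 was highest in basal ganglia and sheep 690 in motor cortex, and sheep 694 was lowest in both. ZP2 was called among the regions (edgeR adjusted p = 2.61e-04). OOEP stood at 0.161, 0.375, 0.345, 0.298 and 0.201 CPM in pons (mean 0.276 ± 0.0922, n = 5), above regional means of 0.0524 to 0.126 CPM elsewhere, with overlap. It missed the threshold among the regions (edgeR adjusted p = 0.0877), passed it with the animal as a replicate block (adjusted p = 0.00819), and passed it without sheep 699 (adjusted p = 0.00477), whose libraries were high in several other regions. Over all 50 brain libraries ZP3 gave 99 counts, NLRP5 15, FIGLA 4, NOBOX 4 and BMP15 1.

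Sheep sperm gave a different set. NOBOX gave 0, 27, 5, 16 and 23 counts in sheep 687, 688, 690, 694 and 699, or 0, 0.549, 0.365, 0.542 and 0.485 CPM (mean 0.388 ± 0.229, n = 5). The 50 brain libraries gave 4 counts of NOBOX, so that 4 of 5 sperm libraries lay above every brain library and the ratio of mean CPM was 288.4. NOBOX did not pass the filter. Fitted without it, the log2 difference was 9.01 ± 0.51 with edgeR (adjusted p = 9.76e-16) and 9.19 ± 3.24 with DESeq2 (adjusted p = 0.00673), where 36.5% and 33.8% of 29381 genes were called higher in sperm. FIGLA gave 5 counts, all in sheep 694, and was called higher by edgeR without the filter (adjusted p = 1.23e-05) but not by DESeq2 (adjusted p = 0.318). BMP15, ZP3 and NLRP5 gave 0 counts in sheep sperm. For ZP3 this was at least 2.36-fold lower than in brain by CPM of the library total, but after TMM scaling the 3 counts taken as the limit correspond to 0.0736 CPM in sperm, above the brain mean of 0.0295. ZP3 was called by neither tool without the filter, and for BMP15 and NLRP5 no difference was detectable at this depth.

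For GDF9 and ZP2 the sperm comparison turned on the scale as well. GDF9 gave 0, 9, 4, 8 and 45 counts in sheep sperm, or 0, 0.183, 0.292, 0.271 and 0.949 CPM of the library total, all below the lowest brain library at 1.22 CPM and 6.78-fold lower by mean, where 49.7% of genes were lower with no overlap on that scale. After TMM scaling the sperm levels were 0, 0.728, 1.32, 0.888 and 5.06 CPM (mean 1.60 ± 1.99) against 1.94 ± 0.493 in brain, and the ranges overlapped. The edgeR difference (sperm minus the mean of the regions) was -0.23 ± 0.30 on the log2 scale (adjusted p = 0.472), where 33.1% of 21859 genes were called higher and 41.1% lower. It was -1.52 without the sperm library of sheep 699 (edgeR adjusted p = 9.51e-06) and 0.48 with upper quartile factors, so its direction depended on the scaling. ZP2 gave 10, 3, 0, 7 and 0 counts in sperm and was 1.94-fold lower than brain by mean CPM of the library total, but 0.473 ± 0.581 against 0.156 ± 0.220 CPM after TMM scaling. The edgeR difference of ZP2 was 2.07 ± 0.64 (adjusted p = 0.00301), and 1.26 without the sperm library of sheep 687 (edgeR adjusted p = 0.137). OOEP gave 1 count in sperm, in sheep 690, against 327 in brain, and was not called (-1.71 ± 1.30, edgeR adjusted p = 0.218), but was called without that library (-5.54, edgeR adjusted p = 0.0334).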

How the data were processed

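Per the labels' protocols, polyadenylated RNA was sequenced as paired reads of 150 bases. Per the submitters' design text, Trimmomatic v0.39 removed adapters, STAR v2.7.5a placed the reads on GRCr8 (rat) or ARS-UI_Ramb_v3.0 (sheep), and Rsubread v2.20.0 gave the counts. The deposited tables hold raw counts per gene. From these, CPM of the library total were computed, and groups were compared with edgeR 4.0.16 (R 4.3.3; TMM factors, filterByExpr, quasi-likelihood test, Benjamini-Hochberg over all genes), called at an adjusted p below 0.05 and a log2 difference of at least 1. Relations over the ovaries used numpy 2.4.6 and scipy 1.17.1 with two-sided permutation tests. Sequences and positions came from RefSeq (GRCr8), to which 38599 of 38675 rat symbols matched. Scripts were tested on simulated data.

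Same-numbered samples of compared groups come from the same animals. Deviations from group means correlated between same-numbered samples by -0.157 to 0.075 (ovary and brain), -0.057 to 0.118 (rat sperm and brain) and 0.033 to 0.149 (sheep sperm and brain). Alternatives were other factors, no filter, DESeq2 1.42.0, the block and leaving out libraries. Members and lists were chosen with earlier results of these data known. Named genes were the members, 4 marker genes, the list genes with the highest and lowest ovary mean and the 10 genes most alike, while Uchl1, Ptgs2, Bmpr1b, Nlrp14 and Nlrp4 were named after their values were seen. Library totals limit precision: a count of 0 over a group was read as at most 3 counts.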

Additional observations from a re-analysis of the deposited data

Results flagged for a closer look

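Of 28 groups of 4 to 10 libraries examined for a library far from the others, 2 were picked out, about as many as chance gives at 1 in 20. GDF9 in sheep frontal cortex was 3.68 CPM in sheep 687, with the nearest of the other 4 at 2.69 CPM, a gap of 0.812 of the whole range. OOEP in sheep motor cortex was 0.366 CPM in sheep 699, with the nearest at 0.0757 CPM, a gap of 0.831 of the range.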

How the results depend on the processing

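Of the values of single genes recomputed under the alternatives, 206 kept their direction or stayed uncalled, 5 newly passed the threshold, 2 no longer did, and no called value changed sign. Those that changed were ZP2, GDF9 and OOEP in sheep, given above. This tally leaves out rat sperm against male brain, where no member passed the filter. Fitted there without the filter, leaving out sperm libraries 3, 7 and 14 reversed Zp1 (-0.02 with edgeR) and Gdf9 (-0.79 with edgeR, -1.04 with DESeq2), and the cause was not tested. In that smaller set edgeR also newly called Zp2 lower in sperm (-2.07, adjusted p = 0.00331) and Nobox higher (1.64, adjusted p = 0.0424). The number of genes called in ovary against female brain was 11832, and 18799 without the low-count filter. In rat sperm against male brain it was 12111 (5663 higher, 6448 lower), 22067 without the filter (12974 higher, 9093 lower) and 18427 with DESeq2. The block gave 11925 there (4384 higher, 7541 lower), and leaving out sperm libraries 3, 7 and 14 gave 12541 (4938 higher, 7603 lower). In ovary against sperm it was 9971 (5480 higher), 19449 without the filter (6883 higher) and 16049 with DESeq2 (7114 higher). Between the brains of the sexes it was 12, 19 without the filter, 34 with DESeq2 and 22 without brain libraries 1 and 4. In sheep sperm against brain the median log2 difference of all genes was -0.42 with TMM, -0.17 with RLE factors, 0.31 with upper quartile factors (8907 higher, 6980 lower, against 7239 and 8976) and 1.05 with DESeq2 (9937 higher, 8132 lower). In rat sperm against male brain RLE factors moved that median from -0.03 to -0.28. Leaving out 1 sheep gave 15940 to 16329 calls against 16215 in sperm against brain, and 14132 to 15322 against 16224 among the regions.

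Of 36 relations among the oocyte genes, 32 passed, and 20 without the 2 farthest ovaries. Of 36 relations with marker genes, 4 passed, 2 without the 2 farthest ovaries, 1 without ovary 18 and 8 by Pearson's r. The animal as a replicate block gave 11837 calls in ovary against brain, 16268 in sheep sperm against brain and 17408 among the regions, and changed no member's call but that of OOEP. Leaving out ovary 18, brain libraries 1 and 4, sperm libraries 3, 7 and 14, sperm library 17 or single sheep sperm libraries was chosen after seeing the data. Counts under about 10 per library limit what can be said of the genes in brain and sperm.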
